A study of Mus musculus with 6 samples.

Results

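Interleukin-2 (IL-2), the chains of its receptor and the STAT5 pathway below it were followed in the RNA of mouse regulatory T (Treg) cells cultured with or without sorafenib (Sora), a multikinase inhibitor given to patients with liver cancer. The 10 genes were picked by symbol from the 22939 genes of the deposited tables. They were Il2, the receptor genes Il2ra, Il2rb, Il2rg and Il15ra, the kinase gene Jak3, the transcription factor genes Stat5a and Stat5b, and Cish and Socs2, which STAT5 is known to induce. No cut on measured values was used to pick them, but they were chosen with earlier results of these data known. Of these, 10 of 10 passed the filter on low counts that left 13463 genes for testing.

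The data were 6 RNA-seq libraries, 3 labelled control (ctrl-Treg cells) and 3 labelled sorafenib (Sora-Treg cells), with total counts between 30727686 and 37717324. Both groups began as naive CD4+ T cells of Foxp3 GFP mice, a C57BL/6J strain with GFP knocked into its own Foxp3 locus. The cells were stimulated through CD3 and CD28 under TGF-β1 with antibodies that block IFN-γ and IL-4, and GFP+ cells were sorted. The culture recipe in the study's methods lists no added IL-2. Age of the donor mice, Sora dose and day of harvest for these libraries were not given in the sources used here, and nothing says whether the replicates were separate cultures or animals, so the p-values may measure technical spread only.

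IL-2 is a growth factor that activated conventional T cells secrete and that Treg cells consume. Its high-affinity receptor joins the α chain CD25, which binds IL-2, to the β chain CD122 and the common γ chain CD132, which carry the signal. Jak1 and Jak3 sit on the β and γ chains and phosphorylate STAT5, which then enters the nucleus, sustains Foxp3 and CD25, and switches on its own inhibitors. In Treg cells, Foxp3 holds the Il2 gene down, so that these cells depend on IL-2 made by others.

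The identity of the cells was checked on marker genes in TMM-scaled CPM (reads relative to the library total of tested genes, adjusted by a TMM scaling factor). T cell markers summed to between 1568 and 1588 CPM in control and to between 2161 and 2210 CPM in Sora libraries, with 6 of 6 genes higher (when libraries were scaled by total counts alone, the log2 fold changes of Cd4 and Cd5 went from 0.06 to -0.05 and from 0.14 to 0.02 and were not called), and Foxp3 was at 259 ± 8.99 (SD, n = 3) and 272 ± 4.75 CPM. Of all tested genes, 29.7% were called higher and 29.9% lower at an adjusted p under 0.05, which is the share to set beside these counts. Markers of other cells were low but unequal. The 7 myeloid markers summed to 93.5, 93.0 and 24.9 CPM in the control libraries and to 22.3, 42.9 and 20.8 CPM in the Sora libraries, with 5 of 7 called lower. The B cell markers, 3 of 4 tested and all 3 lower, summed to between 1.53 and 2.39 CPM and to between 0.251 and 0.365 CPM. CD8 T cell markers were between 12.6 and 15.1 CPM in all libraries, of which Cd8a was lower. Of the dendritic list only Zbtb46 was tested, and it was lower, at 15.4 against 4.13 CPM, while Itgax had at most 8 reads and Xcr1 at most 2 in any library. Of the NK list only Eomes was tested, and it was higher, at 2.21 against 4.53 CPM, while Klrb1c and Klra7 had at most 1 read in any library. Erythroid markers had at most 4 reads.

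Stretches of sequence next to the start sites of the ligand gene, the α chain gene and the STAT5 target gene Cish are shown. Of the 10 genes, Il2 had the lowest and Il2ra the highest fold change, and of the 8 whose windows were searched, Cish had a paired STAT5 motif. The sequences were taken from RefSeq on the GRCm38.p6 build, are written 5′ to 3′ on the strand of the gene, and the count tables themselves hold no coordinates. In the first 2 runs, which end at the base before the start site, capitals mark the NFAT core letters GGAAA or their reverse complement. In the last, which spans the start site of Cish, capitals mark the STAT5 letters TTCNNNGAA, which read the same on both strands.
Il2, chr3:37125955-37126204, minus strand: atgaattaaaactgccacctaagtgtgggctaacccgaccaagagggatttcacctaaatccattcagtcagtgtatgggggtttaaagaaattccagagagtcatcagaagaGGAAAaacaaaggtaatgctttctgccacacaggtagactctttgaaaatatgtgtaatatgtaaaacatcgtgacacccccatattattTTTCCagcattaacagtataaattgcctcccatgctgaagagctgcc
Il2ra, chr2:11642542-11642791, plus strand: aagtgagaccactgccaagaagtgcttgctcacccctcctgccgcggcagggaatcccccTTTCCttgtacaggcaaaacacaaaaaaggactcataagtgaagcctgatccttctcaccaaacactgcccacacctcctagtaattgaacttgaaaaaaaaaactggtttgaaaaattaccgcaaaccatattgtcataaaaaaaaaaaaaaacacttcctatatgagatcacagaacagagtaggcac
Cish, chr9:107296654-107296683, plus strand: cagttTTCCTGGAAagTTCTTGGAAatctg

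RefSeq start-site windows of 300 bases, 250 before and 50 after the start, were at hand for 8 of the 10 genes, in 11 windows, and Il2rb and Socs2 had no entry. The Cish window held TTCNNNGAA at 2 places, starting at bases 1 and 12 after the start, and the windows of the other 7 genes held none. Of all 32851 windows, 8.3% held these letters and 0.457% held them 2 or more times. The GGAAA letters, searched on both strands, were in 61.3% of all windows, and in the Il2 window they began at -137 and -47 and in the Il2ra window at -190. GGAAA also falls inside or across both Cish STAT5 matches, so the 2 motifs are not separate there. The AP-1 letters TGANTCA, on both strands, were in 7.81% of all windows and among the 8 genes searched in 1 window of Il15ra only. These are matches of letters, not measured binding, and a missing match says only that the letters are not in the window.

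Of the 10 genes, 7 were higher in Sora-Treg cells, 2 were lower and 1 was not called, by edgeR's quasi-likelihood test at a Benjamini-Hochberg adjusted p under 0.05. With the same call, 29.7% of all 13463 tested genes were higher and 29.9% were lower. The study also asked for more than a 2-fold change to name a differentially expressed gene (DEG). By that rule 0 of the 10 were DEGs higher, where 6.30% of all tested genes were, and 1, Il2, was a DEG lower, where 4.97% were. The groups did not overlap in 9 of the 10 genes, against 63.7% of all tested genes. The median log2 fold change of the 10 was 0.32, beside -0.0035 over all tested genes. The ligand gene was lower while the genes of the 3 chains of its receptor were higher, as the plot of CPM by library shows.

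**Figure D1:**
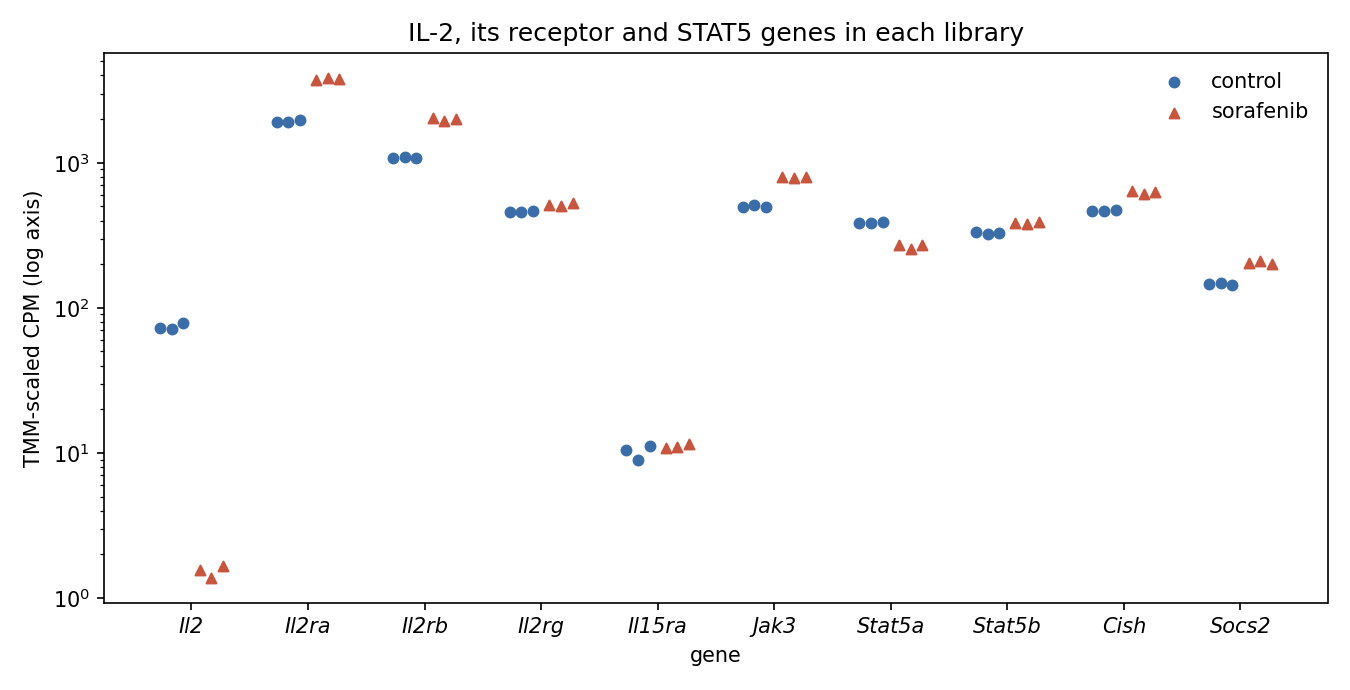
TMM-scaled CPM (log axis) of the 10 genes in each library, circles for control and triangles for sorafenib. Il2 stood at 71.7 to 78.7 CPM in control and at 1.38 to 1.66 CPM in Sora libraries, while only Il15ra had groups that overlapped.

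Il2, the gene of the ligand, was read 2841, 2609 and 2513 times in the control libraries and 47, 44 and 59 times in the Sora libraries. In CPM it was 72.2, 71.7 and 78.7 in control and 1.55, 1.38 and 1.66 in Sora libraries. Each Sora library was thus far under each control library, and the spread within either group was small beside the gap. The mean fell from 74.2 ± 3.92 to 1.53 ± 0.140 CPM (SD, n = 3 each) and was 48.2-fold lower, or -5.59 ± 0.08 (SE) on the log2 scale (edgeR adjusted p = 1.41e-23). The 95% confidence interval of the log2 fold change ran from -5.77 to -5.42. Only 2 of the 13463 tested genes had a lower log2 fold change. Measured per length, as FPKM (reads scaled by gene length and library total), Il2 was higher than 95.3% of tested genes in control-Treg cells and higher than 28.4% in Sora-Treg cells. In bulk RNA, fewer cells that make a transcript and less transcript per cell cannot be told apart.

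Control replicate 3, which had 24.9 CPM of myeloid markers, near the Sora libraries, had the highest Il2 of all at 78.7 CPM. With control replicate 3 alone as the control group, a choice made after seeing the data, the log2 fold change of Il2 was -5.68. The summed B cell markers and the dendritic marker Zbtb46 were lower in every Sora library than in any control library. The part of myeloid, B cell or dendritic RNA in the result was not tested, nor was that of any conventional T cells carried through the sort. Il2 overlaps Adad1 in GENCODE M21, and Adad1 had between 6 and 17 reads in any library.

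The tested genes with at least a mean log2 CPM of 2 whose profile over the 6 libraries was nearest to that of Il2 were Spib, Idi2 and Wnt3, among 10142 candidates. Their root mean square differences from the Il2 profile, on log2 CPM centred on the control mean, were 0.475, 0.571 and 0.846. Nearness by this measure mostly means a like change between the groups, and shows no shared regulation. Spib, an ETS family transcription factor gene, had 542, 449 and 403 reads in control and 7, 14 and 5 reads in Sora libraries. Its log2 fold change was -5.58, beside -5.59 for Il2. Idi2 shares sequence with Idi1, so its reads are uncertain. Wnt3, a secreted Wnt ligand gene, had a log2 fold change of -4.52.

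Il2ra encodes CD25, the α chain, and was the most abundant of the 10 genes in both groups. It measured 1911, 1920 and 1971 CPM in control and 3737, 3844 and 3803 CPM in Sora libraries. The lowest Sora library was therefore well over the highest control library. The mean rose from 1934 ± 32.1 to 3795 ± 54.1 CPM, which is 1.96-fold, and the log2 fold change was 0.97 ± 0.02 (edgeR adjusted p = 1.85e-20). The 95% confidence interval, from 0.93 to 1.02, included the 2-fold limit, so the gene lay at the DEG limit rather than clearly on either side of it. Il2ra is also a Treg marker, and of the 5 Treg markers, Ctla4 rose by 1.53 and Tnfrsf18 by 0.81 on the log2 scale while Ikzf2 was at 0.02 and not called (-0.09 when libraries were scaled by total counts alone).

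Il2rb encodes CD122, the β chain, which IL-15 also uses. It stood at 1073, 1096 and 1081 CPM in control and at 2035, 1949 and 1999 CPM in Sora libraries, again with no overlap. Its log2 fold change was 0.88 ± 0.02 (edgeR adjusted p = 4.57e-19), a 1.84-fold rise.

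Il2rg encodes the common γ chain CD132, which the receptors for IL-4, IL-7, IL-9, IL-15 and IL-21 share. It was 459, 458 and 464 CPM in control and 511, 506 and 525 CPM in Sora libraries. The groups were apart but close, and the log2 fold change of 0.16 ± 0.03 (edgeR adjusted p = 1.27e-05) was a 1.12-fold rise. When libraries were scaled by their total counts alone, which took the median of all tested genes to -0.12 (log2), the value was 0.04 and no longer called (adjusted p = 0.144). Under that scaling 2862 of all tested genes were higher and 5614 lower, in place of 3994 and 4028.

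Il15ra encodes the α chain that presents IL-15 to the β and γ chains, and was the least abundant receptor gene, with 326 to 410 reads a library. It was 10.4, 8.96 and 11.1 CPM in control and 10.9, 11.0 and 11.5 CPM in Sora libraries, and the groups overlapped. The log2 fold change was 0.14 ± 0.10 (edgeR adjusted p = 0.243), and its interval from -0.07 to 0.34 leaves room for a small change in either direction but not for one of the size seen for Il2ra or Il2rb.

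**Figure D2:**
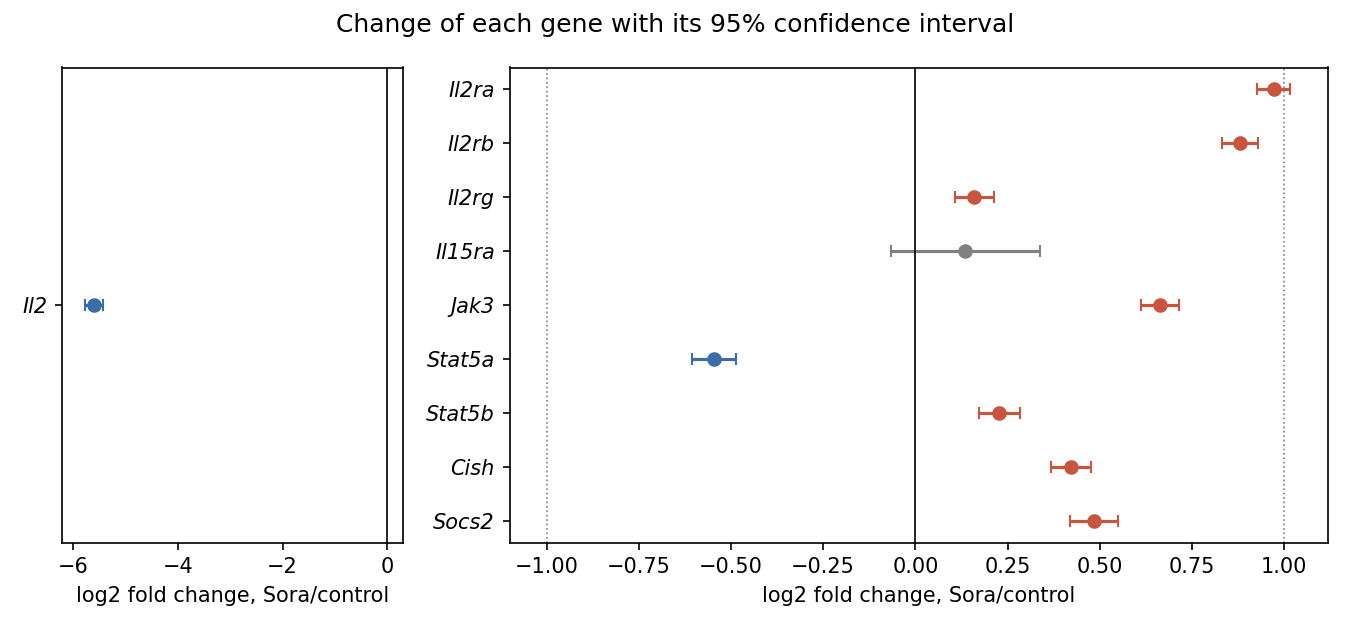
Log2 fold change of each gene in Sora against control libraries (n = 3 each) with its 95% confidence interval from edgeR, Il2 on its own axis at the left. Red marks genes called higher, blue lower and grey not called, and dotted lines mark the 2-fold limit, which the interval of Il2ra crosses.

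Jak3 encodes the kinase bound to the common γ chain. It was 498, 510 and 495 CPM in control and 799, 779 and 800 CPM in Sora libraries. The groups stood well apart, with a log2 fold change of 0.66 ± 0.03 (edgeR adjusted p = 3.00e-16), a 1.58-fold rise. Its neighbour Insl3 overlaps it and had between 150 and 317 reads, few beside the 15794 to 28471 reads of Jak3.

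Stat5a and Stat5b encode the closely related STAT5 proteins, lie side by side on chromosome 11, and moved in opposite directions. Stat5a was 386, 386 and 391 CPM in control and 270, 255 and 271 CPM in Sora libraries, so that every Sora library was lower. Its log2 fold change was -0.55 ± 0.03 (edgeR adjusted p = 1.78e-13), a 1.46-fold decrease. Stat5b was 332, 323 and 330 CPM in control and 384, 379 and 391 CPM in Sora libraries, so that every Sora library was higher. Its log2 fold change was 0.23 ± 0.03 (edgeR adjusted p = 1.42e-07), and 0.11 when libraries were scaled by total counts alone (adjusted p = 0.000989). The paralogs share sequence, and how shared reads were divided was not given in the sources used here. Stat5a also overlaps Stat3 in GENCODE M21, which had 18136 to 35753 reads a library.

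The balance between the pair was also read within each library, where scaling plays no part, although a ratio shows only a change of one gene relative to the other. The ratio of Stat5a to Stat5b, in FPKM, was 2.01, 2.07 and 2.05 in control and 1.22, 1.17 and 1.20 in Sora libraries. The log2 ratio differed by -0.77 between groups (exact two-sided permutation test, p = 0.1, the smallest that 3 against 3 allows; 4 ratios were compared). Stat5a was thus the more abundant of the pair in each control library by these values. Which of the pair was more abundant depended on gene length in both groups. With the longest GENCODE M21 transcript in place of the length behind the FPKM values, the mean ratio was 1.55 in control and 0.908 in Sora libraries. The merged exons of all transcripts span 7133 bases for Stat5a and 5539 for Stat5b, beside 4583 and 7954 behind the FPKM values. Those lengths put Stat5a under Stat5b in control too.

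**Figure D3:**
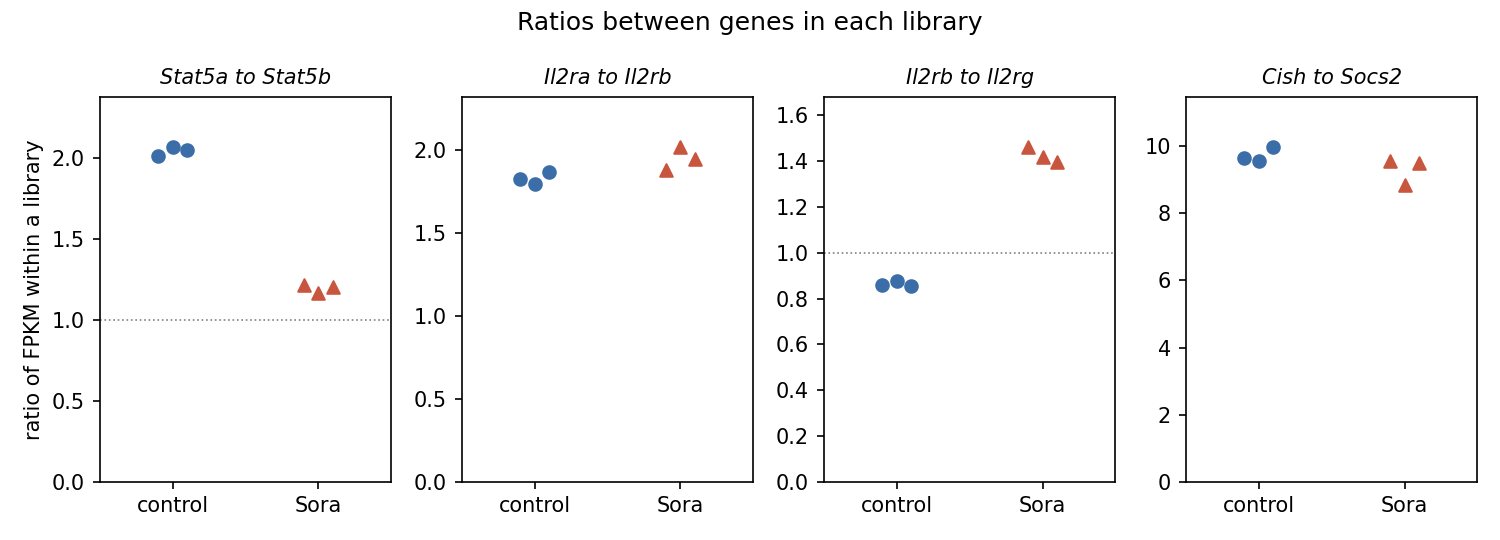
Ratio of FPKM between pairs of genes within each library, circles for control and triangles for Sora, each axis from 0, with a dotted line at 1 in the Stat5a and Il2rb panels. Stat5a to Stat5b fell from 2.05 to 1.20 and Il2rb to Il2rg rose from 0.865 to 1.43, while Cish to Socs2 overlapped between groups.

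The receptor chains also changed in proportion to each other. The ratio of Il2rb to Il2rg, in FPKM, was 0.859, 0.879 and 0.856 in control and 1.46, 1.42 and 1.40 in Sora libraries (difference in log2 ratio 0.72, exact two-sided permutation p = 0.1). By these values the β chain gene was under the γ chain gene in each control library and over it in each Sora library. With the longest GENCODE M21 transcripts as lengths, the mean ratios were 0.937 and 1.55. The merged exons of all transcripts span 2387 bases for Il2rg and 4287 for Il2rb, beside 1663 and 4528 behind the FPKM values. Those lengths raise the ratio in both groups and put it over 1 in control too, so the crossing of 1 depended on gene length. The ratio of Il2ra to Il2rb, in FPKM, was 1.82, 1.79 and 1.86 in control and 1.88, 2.02 and 1.94 in Sora libraries. This difference was small, 0.09 in log2 ratio (exact two-sided permutation p = 0.1), and the nearest libraries of the groups were close to each other.

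Cish and Socs2, both inhibitors of cytokine receptor signals that STAT5 is known to induce, rose. Cish was 465, 467 and 469 CPM in control and 641, 608 and 627 CPM in Sora libraries. The control libraries were nearly equal and all under the Sora libraries, and the log2 fold change was 0.42 ± 0.03 (edgeR adjusted p = 2.85e-12), a 1.34-fold rise. Socs2 was 147, 149 and 143 CPM in control and 204, 209 and 201 CPM in Sora libraries. Its groups did not overlap either, and the log2 fold change was 0.49 ± 0.03 (edgeR adjusted p = 6.83e-12), a 1.40-fold rise. The ratio of Cish to Socs2, in FPKM, was 9.66, 9.55 and 9.98 in control and 9.55, 8.85 and 9.51 in Sora libraries, and the groups overlapped (difference in log2 ratio -0.06, exact two-sided permutation p = 0.2). The genes nearest to Cish in profile were Myl6, Zswim8 and Agpat3, with root mean square differences of 0.00826, 0.0115 and 0.0122 on log2 CPM.

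Levels of different genes were compared in FPKM, which carries no TMM factor. In control-Treg cells the order was Il2ra at 454, Il2rg at 288, Il2rb at 249, Jak3 at 128, Cish at 113, Stat5a at 87.9, Il2 at 81.3, Stat5b at 43.0, Socs2 at 11.6 and Il15ra at 2.09 FPKM. The ranges of neighbours over the 3 libraries were apart at every step of that order, the closest being Stat5a from 87.3 to 88.6 and Il2 from 78.4 to 86.2 FPKM. In Sora-Treg cells Il2 went from the seventh place to the last, at 1.55 FPKM, and Il2rb at 423 passed Il2rg at 297 FPKM. The others kept their order, with Il2ra at 823, Jak3 at 186, Cish at 140, Stat5a at 55.6, Stat5b at 46.5, Socs2 at 15.0 and Il15ra at 2.12 FPKM. The length behind the FPKM value was 13085 bases for Socs2 and 5048 for Il15ra, where the longest GENCODE M21 transcripts are 4242 and 2315 bases. With these longest transcripts as lengths the order in control was as above, and in Sora-Treg cells Stat5b came before Stat5a. With the merged exons of all transcripts as lengths, the control order changed too, with Il2rb before Il2rg and Stat5b before Stat5a. The order of genes at near levels thus depended on the length used.

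**Figure D4:**
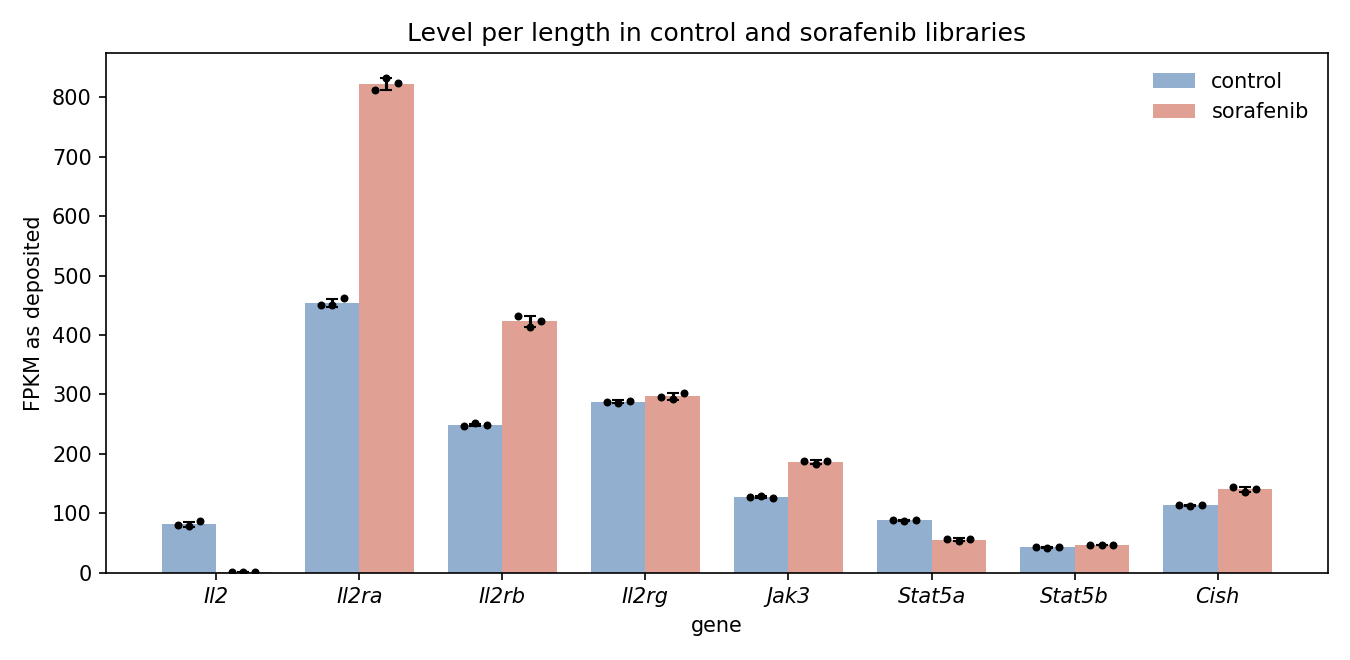
Deposited FPKM of 8 of the 10 genes, bars for the mean and error bars for the SD (n = 3), with each library as a point. Il2ra rose from 454 to 823 and Il2rb from 249 to 423 FPKM, and Il2 fell from 81.3 to 1.55 FPKM. FPKM is scaled by library total alone, so these changes differ somewhat from the TMM-scaled fold changes. Socs2 and Il15ra, under 16 FPKM, are left out.

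Other genes of the pathway were read from the same fit as fixed lists, described by counts beside the 29.7% higher and 29.9% lower of all tested genes. Of the common γ chain family, 7 of 9 genes were tested, and 4 were higher and 2 lower (median log2 fold change 0.31). With so few genes the median depended on which were tested and how: it was 0.10 with every gene that had a read, 0.14 with DESeq2, 0.20 with library totals alone, 0.70 with a stricter CPM filter and 0.94 and 0.96 with limma on FPKM. Il21, a helper T cell cytokine gene, rose from 5.26 ± 0.544 to 26.1 ± 1.26 CPM (2.31 on the log2 scale), and Il9, the gene of a mast cell growth factor, fell from 23.0 ± 1.35 to 7.99 ± 0.743 CPM (-1.52). The receptor genes Il7r (1.30) and Il4ra (1.07) rose, and Il9r fell (-2.12) from a low level of 4.16 CPM. Il15 and Il7 had at most 9 reads in any library and were not tested.

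Of 10 genes that relay the IL-2 receptor signal, 7 were higher, 0 lower and 3 not called (median 0.20). The largest log2 fold change was that of the adaptor gene Gab2, at 1.52, from 10.4 ± 0.687 to 29.8 ± 1.72 CPM. The PI3 kinase genes Pik3r1 (0.53) and Pik3cd (0.21) and the kinase gene Lck (0.31) also rose, and Jak1, partner of Jak3, was called higher at 0.09 but was at -0.02 when scaled by library totals alone. With that scaling 6 genes of this list were higher and 1 lower, and the median was 0.09.

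Of 9 further brakes on JAK-STAT signals, 5 were higher and 2 lower (median 0.08), and with library totals alone 3 were higher and 4 lower (median -0.03). Socs3 rose by 0.95, from 211 ± 4.21 to 406 ± 9.58 CPM. The phosphatase gene Ptpn2 (0.40) and Socs1 (0.29) rose, and Ptpn6, the gene of SHP-1, fell by 0.14 on the log2 scale.

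Of 21 genes known to be raised by IL-2 or STAT5 in T cells, 19 were higher, 1 lower and 1 not called, with 6 DEGs higher and a median of 0.63. Gzmb, the gene of granzyme B, rose from 10.7 ± 0.691 to 379 ± 3.95 CPM (5.14), and Prf1, the gene of perforin, from 0.692 ± 0.0793 to 6.16 ± 0.722 CPM (3.15). This list was chosen with earlier results of these data known, so its counts are not independent evidence. The study also drew attention to Prf1 in these libraries, so neither is the direction of that gene. Reads of Gzmb may be split with other granzyme genes. Nfil3 (1.74), Prdm1 (1.39), the cytokine gene Lif (1.11) and the kinase gene Pim2 (1.05) were the other DEGs, and Socs3, counted here too, was at 0.95. With library totals alone 17 genes of the list were higher and 1 lower (median 0.52). Lif, at 0.995, and Pim2, at 0.937, were then under the 2-fold limit. The survival gene Bcl2l1 was the 1 that fell, at -0.54, while Bcl2 rose by 0.67 and Mcl1 by 0.57. Foxp3, on whose reporter the cells were sorted, was called higher at 0.07 (edgeR adjusted p = 0.0405) but was at -0.04 when scaled by library totals alone.

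Of 7 genes known to be lowered by IL-2 or STAT5, 3 were lower, 1 higher and 3 not called (median -0.22). Tcf7, the gene of the transcription factor TCF-1, fell from 404 ± 6.50 to 171 ± 4.89 CPM (log2 fold change -1.24). The IL-6 receptor genes Il6ra (-0.48) and Il6st (-0.29) fell, and the gene that was higher was Il7r. Bcl6, at -0.22 (edgeR adjusted p = 0.0872), Cxcr5 and Il17a were not called. With library totals alone Bcl6 was called lower at -0.34 (edgeR adjusted p = 0.0105), which made 4 genes of the list lower and its median -0.34.

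Among 12 known activators of the Il2 gene, 7 were higher and 4 lower (median 0.16), and with library totals alone 5 were higher and 5 lower (median 0.04). The AP-1 genes Fosl2 (1.51), Fos (0.71), Junb (0.51) and Jund (0.49) and the NFAT gene Nfatc2 (0.37) rose. Jun (0.19) and Nfkb1 (0.13) were called higher too, but with library totals alone they were at 0.07 (edgeR adjusted p = 0.0531) and 0.02 (adjusted p = 0.563). Nfatc1 (-0.72), from 169 ± 1.72 to 103 ± 1.66 CPM, the NF-κB family gene Rel (-0.65), from 172 ± 2.11 to 110 ± 4.63 CPM, Pou2f1 (-0.42) and Nfatc3 (-0.16) fell. Among 10 genes listed as repressors of the Il2 gene, though not all act only in that way, 6 were higher and 3 lower (median 0.16). With library totals alone 5 were higher and 3 lower (median 0.04). Crem rose from 39.3 ± 2.40 to 118 ± 4.24 CPM (1.59), and Prdm1 (1.39), Satb1 (1.23) and Ikzf4 (0.28) rose too, while Zeb1 (-0.35), Ikzf3 (-0.18) and Ikzf1 (-0.10) fell. The largest log2 fold change in either list was that of Crem. The part of any of these factors in the change of Il2 was not tested.

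**Figure D5:**
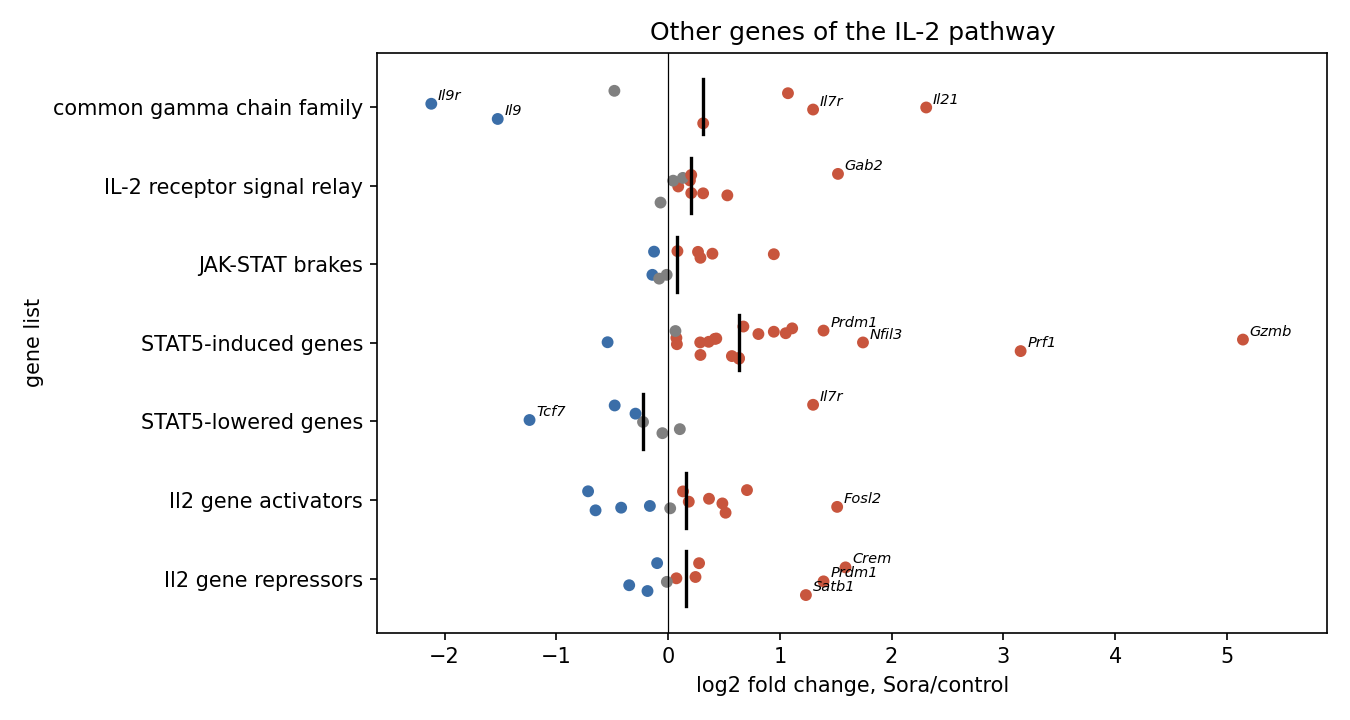
Log2 fold change of the tested genes of the 7 pathway lists in Sora against control libraries, a point for each gene (red higher, blue lower, grey not called) and a black bar at the median of each list. The median of the STAT5-induced genes was 0.63 and that of the STAT5-lowered genes -0.22, and the genes far from 0 are named.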

How the data were processed

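Unnormalized read counts and FPKM values, made by the authors, were deposited for 22939 gene symbols in 6 libraries (3 control, 3 sorafenib). For their alignment the study's methods name Bowtie2 and GRCm38, whereas the submitters' processing notes name fastp, HISAT2, HTSeq, R 3.2.0, DESeq2 and GRCm39. Strand, annotation release and handling of shared reads were not given in the sources used here. The deposited FPKM equalled count over length over library total (largest relative difference 1.64e-06 in 20237 genes), so they are no second measurement.

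Counts were fitted with edgeR 4.0.16 (R 4.3.3; TMM, filterByExpr, quasi-likelihood test, Benjamini-Hochberg adjustment over 13463 genes). The biological coefficient of variation was 4.29%. Called means an adjusted p under 0.05. A DEG also changed over 2-fold. CPM and intervals came from this fit, and ratios used exact permutation tests. Alternatives used DESeq2 1.42.0, limma 3.58.1, other scalings, filters and samples. The code was tested on simulated data. Named genes were the 10, the marker genes, the 3 nearest profiles of Il2 and Cish and, per list, up to 4 genes with the smallest adjusted p plus all DEGs. Others named, such as Jak1, Foxp3, Bcl2, Bcl2l1, Mcl1, Fos, Jun, Bcl6 and Zeb1, were added after their values were seen. The genes and lists were chosen with earlier results of these data known. Sequences came from RefSeq (GRCm38.p6) and gene overlaps from GENCODE M21. Both use GRCm38, and no coordinates were converted.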

Additional observations from a re-analysis of the deposited data

How the results depend on the processing

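The calls and directions of 9 of the 10 genes were the same under all 17 alternatives (other scalings, filters and tools, the replicate block, each library left out, and control replicate 3 alone). The exception was Il2rg, which was not called at 0.0444 with library totals alone (adjusted p = 0.144), at 0.0440 with limma on log2(FPKM + 1) (adjusted p = 0.110) and at 0.0441 with limma on log2(FPKM + 0.1) (adjusted p = 0.109). Il2 ranged from -5.71 to -5.01 and Il2ra from 0.86 to 0.99, so Il2ra stayed under the 2-fold limit throughout. The median of the JAK-STAT brakes turned from 0.08 to -0.0317, -0.0315 and -0.0326 in the same order. The median over all genes tested was -0.12 with library totals alone and with log2(FPKM + 0.1), and -0.10 with log2(FPKM + 1). The log2 level of Stat5a over Stat5b in Sora libraries turned from 0.26 to -0.14 with the longest GENCODE transcript as the length, an alternative chosen after seeing the data, as was control replicate 3 alone. That fit assumes that a lone control varies like the other libraries.

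Deviations of same-numbered libraries from their group means were hardly correlated (-0.04, 0.06 and 0.03). With 3 libraries a group, such values cannot tell whether same-numbered libraries shared a donor or batch. With the replicate block, 7 of the 10 genes were higher and 2 lower, and Il2 was at -5.60, Il2ra at 0.97 and Stat5a at -0.55. Of 119 list medians, 29 moved by more than the replicate spread and 3 changed sign. With 3 libraries a group, an exact permutation test cannot go under p = 0.1. The 44 to 59 reads of Il2 in Sora libraries limit its precision there, and Il15ra is limited by 326 to 410 reads.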
